A study of Mus musculus with 21 samples.

Results

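The regions described here are the Thio-ChIP peaks that share at least 1 bp with an H3K79me2 peak of DMSO-treated mouse embryonic stem (ES) cells. They number 2852 of 7924 Thio-ChIP peaks. Members were chosen by the positions of called peaks in both libraries, so the overlap itself is a description and not a result. Both lists came from V6.5 ES cells of genotype Cdk1as/as, in which the mitotic cyclin-dependent kinase Cdk1 carries an analog-sensitive form that the compound 3-MB-PP1 inhibits and that can use a bulky ATP analog. For Thio-ChIP, 1 library with its input, cells received 500 nM retinoic acid with 1 µM 3-MB-PP1 for 16 h, the inhibitor was washed off, and permeabilised cells were given a thiophosphate-donating ATP analog for 25 min, per the labels' protocols. An antibody to the thiophosphate ester then recovered DNA bound by proteins that Cdk1 had labelled. For H3K79me2, cells grown without feeders received the solvent DMSO or 1 µM 3-MB-PP1 for 4 days, with 1 library and 1 input for each treatment. The Thio-ChIP library thus carries retinoic acid and a released cell cycle block that the DMSO library does not, although its treatment label reads None.

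H3K79me2 is dimethylation of lysine 79 of histone H3, deposited by the enzyme Dot1l. The mark lies on transcribed genes, where it typically begins just past the transcription start and extends into the gene body, and it rises with transcription. Cdk1 drives entry into mitosis and phosphorylates many chromatin proteins. The study asked where Cdk1 substrates sit on chromatin and what Cdk1 inhibition does to H3K79me2. An overlap of the peak lists shows nearby positions in cells of different treatment, not that a Cdk1 substrate and the mark were on the same molecule. All values below come from 1 library per list, so they have no replicate error, and no test between groups was made.

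Both lists had to use 1 genome build before members could be counted. The labels name mm9 and GRCm38. On 7 of 20 chromosomes the last peak of the Thio-ChIP list ended past the last GRCm38 gene, and the DMSO list also did so on 7. On chromosome 7 the ends lay 7068928 bp and 6801271 bp past that gene, so neither list is in GRCm38. With the Thio-ChIP list moved by 1 kb, 2090 or 2175 of its peaks met a DMSO peak, by direction, against 2852 with the lists as deposited, and 626 or 659 did so when it was moved by 50 kb. Of the offsets tried on each chromosome, 0 gave the most shared peaks on 19 of 20 chromosomes, and on chromosome X it tied at 25 with 1 kb. In windows of 10 Mb, the offset at which each list best met GRCm38 gene starts was the same within 4 kb for both lists in 47 of the 50 windows where both were clear. Windows on chromosome 18, with no gene start in the table used, gave no offset. The lists therefore share 1 build, taken to be mm9 as the other build the labels name. No mm9 annotation or genome was used here, so peaks are given by position and are not assigned to genes. The ES cell label was read instead from 3 RNA libraries of the same genotype: Pou5f1, the core pluripotency factor, was at 897 to 961 FPKM and Nanog at 163 to 172 FPKM. All 10 ES cell markers looked at lay above 50 FPKM. The 8 markers of feeder fibroblasts summed to 52.0 to 66.1 FPKM, led by Acta2 at 23.0 to 29.7 FPKM, with Lum listed at 0.

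The regions had higher Thio-ChIP scores than the rest of the list. The authors' score had a median of 176 in the 2852 regions (quartiles 124 and 256, highest 1060). It was 157.5 in the 766 Thio-ChIP peaks that met H3K79me2 only in the inhibitor list (quartiles 117 and 220), and 143 in the 4306 that met neither list (quartiles 111 and 200, highest 3100). The ranges between the quartiles of these groups overlapped. The median was higher in the regions than in the other Thio-ChIP peaks on 20 of 20 chromosomes. Among the 100 highest Thio-ChIP scores, 71 were members.

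The share of members was larger at higher scores. With the Thio-ChIP list divided into 10 equal bins by score, it was 24.9% in the lowest bin (scores 90 to 99), 30.3% at scores 137 to 154 and 55.1% in the highest bin (307 and above). The share on an inhibitor peak only lay between 7.32% and 11.2% in all 10 bins. Such peaks can only come from those that are not members, which were fewer in the highest bin. In the lowest bin, 73 were on an inhibitor peak only and 522 on neither list. In the highest these were 77 and 279, so among peaks that are not members this share was also larger at high scores. Score and width went together, with a Spearman rho of 0.530 over the 2852 regions, and a wider peak has more bases with which to meet another. The regions were wider, with a median of 1704 bp against 1566 bp in the other 5072 Thio-ChIP peaks. With the list divided into 4 equal bins by width, the median score of members was 127 against 114 in the narrowest bin, 142 against 139 in the second, 182 against 164 in the third and 262 against 209 in the widest. The excess in score was therefore smallest at 1383 to 1614 bp and largest among peaks of 1952 bp or more.

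**Figure D1:**
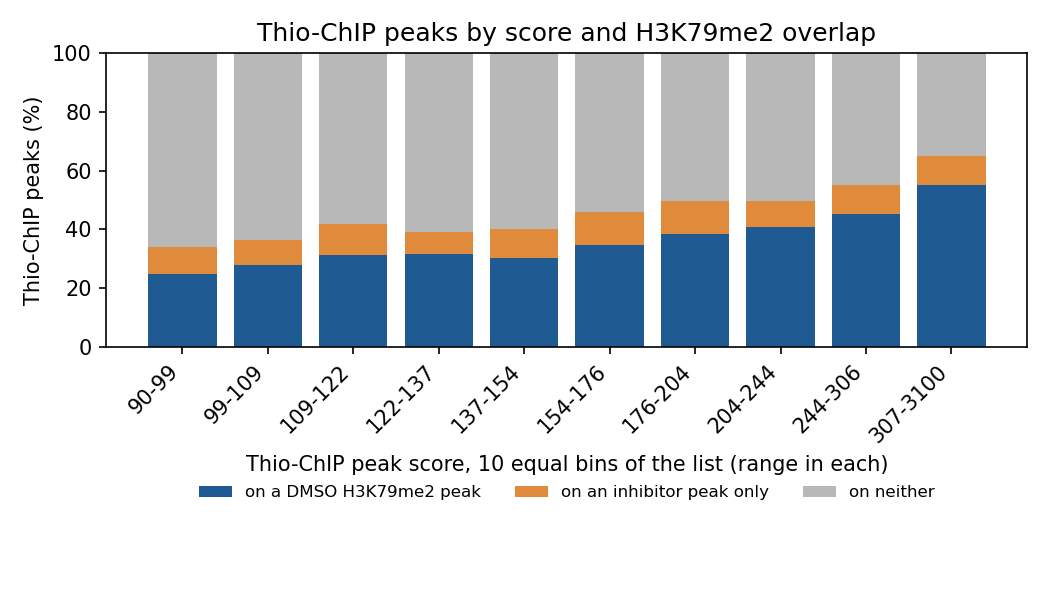
Share of Thio-ChIP peaks (y axis, %) that met a DMSO H3K79me2 peak, an inhibitor H3K79me2 peak only, or neither, in 10 equal bins of the list by the authors' score (x axis, range of scores in each bin). The share on a DMSO peak goes from 24.9% to 55.1%. The share on an inhibitor peak only, out of all Thio-ChIP peaks in the bin, lies between 7.32% and 11.2%. Off the DMSO list, 73 peaks were on an inhibitor peak and 522 on neither in the lowest bin, and 77 and 279 in the highest.

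The regions lay at the edges of H3K79me2 peaks. Of 2852, 2499 (87.6%) crossed an edge, 321 (11.3%) lay wholly inside and 32 (1.12%) held a whole H3K79me2 peak. The centre of the Thio-ChIP peak was inside H3K79me2 in 678 regions (23.8%) and within 1 kb outside an edge in 2082 (73.0%). The shared stretch had a median of 525.5 bp (quartiles 293.75 and 903.75 bp), and the median region was covered over 30.5% of its width. Left and right edges were used about equally, with 1258 and 1166 of the 2424 regions that crossed an edge of a single H3K79me2 peak.

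The choice of members favours edges, since a peak centred outside can only touch by crossing one. The same pattern was therefore read from all 7924 Thio-ChIP centres, whether or not they touched the mark, per Mb of sequence at each distance. In the 500 bp just outside a DMSO edge there were 96.6 Thio-ChIP centres per Mb, and 84.6 per Mb between 0.5 and 1 kb outside. Just inside, the density fell to 22.0 per Mb in the first 500 bp and 14.7 per Mb in the next. At 5 to 10 kb from an edge it was 4.46 per Mb outside and 3.05 per Mb inside. The density just outside was thus 21.7 times that at 5 to 10 kb outside. Around the edges of inhibitor peaks, the density at 5 to 10 kb was 3.78 per Mb outside and 4.49 per Mb inside. The order of inside and outside at that distance thus differed between the lists. The DMSO density inside rests on few peaks, however, with 1 to 7 centres in each 500 bp step.

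**Figure D2:**
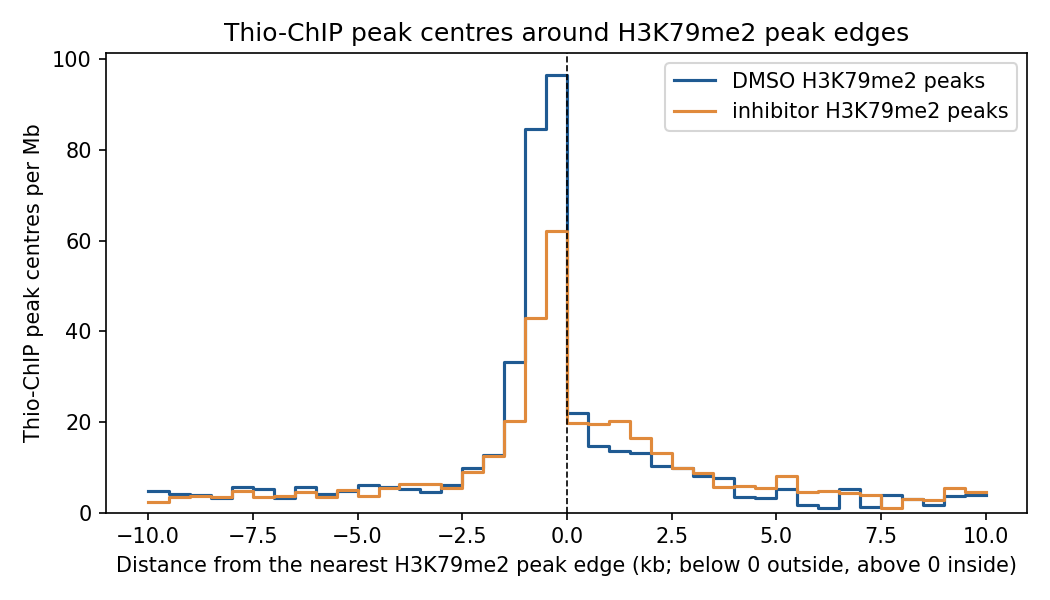
Thio-ChIP peak centres per Mb of sequence (y axis) in 500 bp steps of distance from the nearest H3K79me2 peak edge (x axis, kb; below 0 outside, above 0 inside), for the DMSO and the inhibitor list. Both lines peak just outside the edge, at 96.6 per Mb for DMSO and 62.1 per Mb for inhibitor, and drop to 22.0 and 19.8 per Mb just inside.

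Position within long H3K79me2 peaks followed the same order. Of the regions that met a single H3K79me2 peak, 1443 met one of at least 5 kb, and in 954 of these (66.1%) the Thio-ChIP centre lay outside it. The other 489 centres were inside, and 359 of them (73.4%) were in the outermost 20% at one end or the other of the H3K79me2 peak, which together make up 40% of its length. From one end to the other, 5 equal segments held 183, 44, 39, 47 and 176 centres, so that both ends were occupied alike and the middle segment held 7.98%. The lists carry no strand, so the start and end of a transcription unit cannot be told apart.

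Regions wholly inside H3K79me2 had lower Thio-ChIP scores than those at an edge. The 321 had a median Thio-ChIP score of 153 (quartiles 110 and 225), against 179 (126 and 259) in the other 2531. They were also narrower, with a median of 1623 bp against 1717 bp, and score went with width, as above. Their H3K79me2 peaks were longer and scored higher, with medians of 9557 bp and 75 against 4842 bp and 50. A longer peak has more room to enclose another, so the difference in length follows in part from the grouping. Scores were higher between neighbouring marks: 75 regions met 2 H3K79me2 peaks, and their median Thio-ChIP score was 300 (quartiles 193.5 and 385). In 74 of the 75 the Thio-ChIP centre lay in the gap, which was 1170 to 2600 bp long with a median of 1363 bp. These 75 peaks were also wide, with a median of 2165 bp, and a peak has to be wide to span such a gap.

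H3K79me2 peaks with a Thio-ChIP peak were the long and high-scoring ones. A total of 2883 of 13437 DMSO peaks (21.5%) met at least 1 Thio-ChIP peak, and they held 42.8% of the covered length, 25.6 of 59.9 Mb. Their median width was 5089 bp (quartiles 2231.5 and 11239.5 bp), against 1652 bp (886 and 3595 bp) in the other 10554. Their median H3K79me2 score was 52 against 22. The share that met a Thio-ChIP peak was 7.42% below 1 kb, 21.6% at 2 to 5 kb, 36.4% at 5 to 10 kb and 65.1% at 20 kb or more. By score, in 10 equal bins, it went from 3.05% in the lowest to 53.9% in the highest.

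The difference in score was also present at like lengths. At 2 to 5 kb, H3K79me2 peaks with a Thio-ChIP peak had a median score of 46 against 25 without, at 5 to 10 kb 62 against 33, and at 10 to 20 kb 77 against 44.5. The number of Thio-ChIP peaks did not grow with length in the same way. Of the 2883, 2842 met 1 Thio-ChIP peak, 38 met 2 and 3 met 3. Counted over length, Thio-ChIP centres inside went from 0.952 per Mb in peaks below 1 kb to 14.6 per Mb at 5 to 10 kb. They then fell to 11.9 per Mb at 10 to 20 kb and 9.30 per Mb at 20 kb or more. Centres outside the mark are not in these counts. The score of the Thio-ChIP peak hardly followed that of its H3K79me2 peak: Spearman's rho over the 2852 regions was 0.0730 with H3K79me2 score and 0.139 with H3K79me2 width, as a description of regions that share 2 libraries. The median Thio-ChIP score was 165 in the 713 regions with the lowest H3K79me2 scores and 184 in the 713 with the highest. The share of H3K79me2 peaks that met a Thio-ChIP peak thus rose with their score, while the median Thio-ChIP score differed little. The share covers all DMSO peaks and the median only the regions, so the sizes of these changes cannot be compared.

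**Figure D3:**
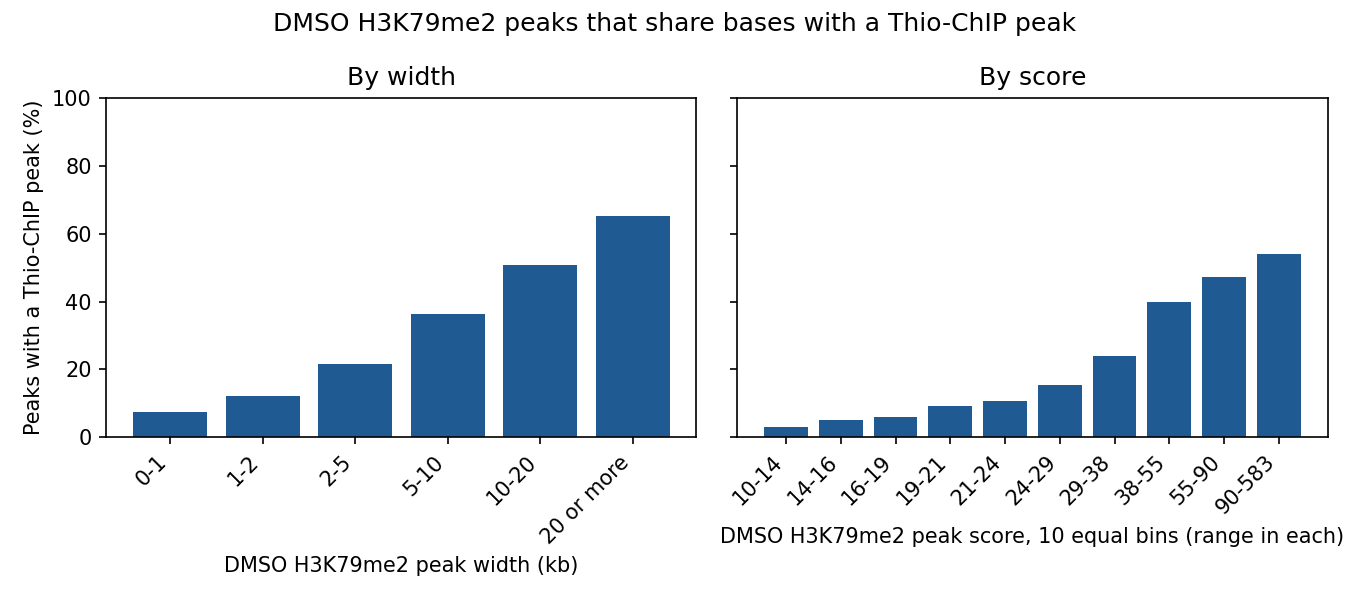
Share of DMSO H3K79me2 peaks that shared bases with a Thio-ChIP peak (y axes, %), by width of the H3K79me2 peak in kb (left) and by 10 equal bins of its score (right). The share goes from 7.42% to 65.1% with width and from 3.05% to 53.9% with score.

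Most regions also met the mark in the cells treated with 3-MB-PP1. Of 2852 regions, 2756 (96.6%) also met an H3K79me2 peak of the inhibitor list. Counted over whole H3K79me2 peaks instead of regions, 96.8% of all DMSO peaks did. That share was 98.6% (2842 of 2883) for DMSO peaks with a Thio-ChIP peak and 96.3% (10168 of 10554) for those without. The inhibitor list is longer, with 22352 peaks over 132 Mb (mean width 5907 bp) against 13437 over 59.9 Mb (4456 bp). A longer list can come from more mark or from more reads, and these cannot be told apart with 1 library per treatment. The inhibitor peaks covered more bases of the region than the DMSO peaks in 2060 regions, fewer in 512 and equally many in 280. The median covered share went from 30.5% to 47.9%, and the number of regions wholly inside H3K79me2 from 321 to 826. Of the 2531 regions not wholly inside in DMSO, 548 (21.7%) were wholly inside in the inhibitor list, while 278 of the 321 wholly inside in DMSO were so in both.

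The 96 regions without an inhibitor peak had weaker marks in DMSO than the other regions. Not all were places without the mark after inhibitor. Of the 2883 DMSO peaks with a Thio-ChIP peak, 2842 met an inhibitor peak. At some of the 96 regions the mark was thus still called nearby but did not touch the Thio-ChIP peak. The H3K79me2 peaks of the 96 had a median score of 23 (quartiles 17.75 and 29) and a median width of 1385 bp, against 54 and 5557 bp in the other 2756. Their Thio-ChIP scores did not stand apart, with a median of 171.5 against 176.

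Among gaps between neighbouring H3K79me2 peaks, a smaller share was covered in the inhibitor list where a Thio-ChIP peak sat in the gap. The DMSO list had 5113 gaps under 5 kb, the shortest of 1161 bp, and 254 of them held the centre of a region. Inhibitor peaks covered 110 of these 254 gaps in full (43.3%), against 3981 of 4821 gaps with no Thio-ChIP centre (82.6%). The gaps had similar lengths, with medians of 1733.5 and 1898 bp. By length, 55.6% of 160 against 89.9% of 2572 were covered at 1 to 2 kb, 21.3% of 47 against 78.1% of 1136 at 2 to 3 kb, and 23.4% of 47 against 70.3% of 1113 at 3 to 5 kb. The order was thus the same at each length. The Thio-ChIP score had a median of 206 in the 144 gaps that were not covered and of 186 in the 110 that were. Among the 75 regions that met 2 H3K79me2 peaks, inhibitor peaks covered the gap in 40. These shares rest on 1 library per treatment, and how far they would vary between replicates is not known.

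**Figure D4:**
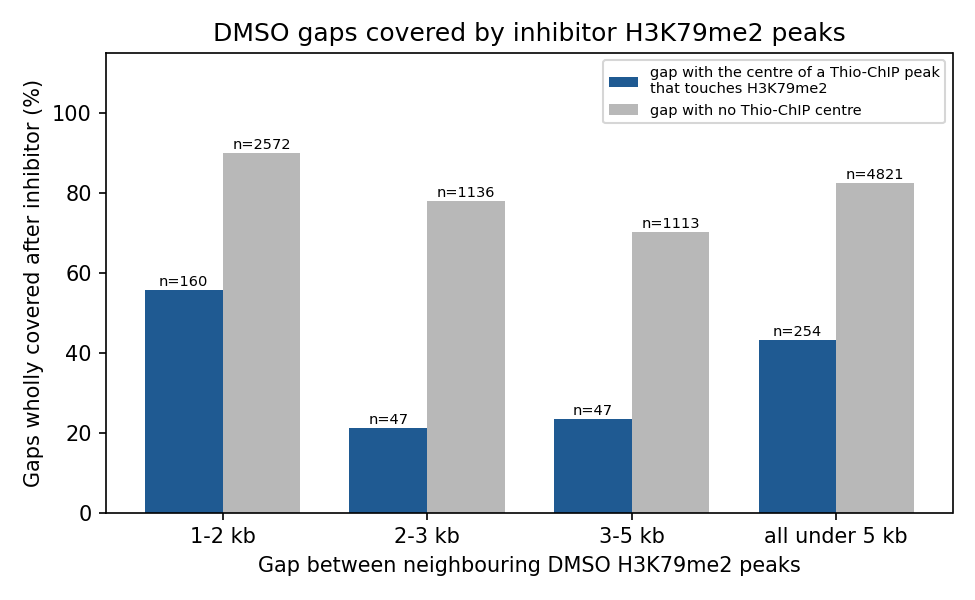
Share of gaps between neighbouring DMSO H3K79me2 peaks that inhibitor H3K79me2 peaks covered in full (y axis, %), by length of the gap (x axis), for gaps with the centre of a Thio-ChIP peak touching H3K79me2 and gaps with no Thio-ChIP centre; n is the number of gaps. The share is lower with a Thio-ChIP peak at each length, and 43.3% against 82.6% over all gaps under 5 kb.

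The edge of the mark next to a Thio-ChIP peak lay further out in the inhibitor list, but at the median by less than the far edge did. Edges were compared for DMSO peaks of at least 5 kb that met exactly 1 inhibitor peak, which met no other DMSO peak. In 624 of these, the centre of a single region lay within 1 kb of 1 edge and not of the other. The edge at the region lay 259 bp further out in the inhibitor list at the median (quartiles 76.75 and 850 bp), and the far edge of the same peaks 1308 bp further out (88.5 and 3145 bp). In 402 of the 624 peaks the far edge moved out further, and in 222 the edge at the region did. By count, the edge at the region lay outward in 526 (84.3%) and inward in 97. The far edge lay outward in 483 (77.4%) and inward in 141. Among edges of peaks with no Thio-ChIP peak, 79.3% lay outward. Within the matched peaks, edges were picked by their DMSO position. The matching itself used the inhibitor list. It leaves out DMSO peaks that an inhibitor peak joined to a neighbour or that met several inhibitor peaks, so these shifts cover only part of the peaks. The edge stayed within 200 bp in 239 cases (38.3%) at the region and in 72 (11.5%) at the far end. For peaks with no Thio-ChIP peak, the median was 437.5 bp over 1342 edges. Both ends of each peak are pooled there, so this value is not a like reference for either kind of end.

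**Figure D5:**
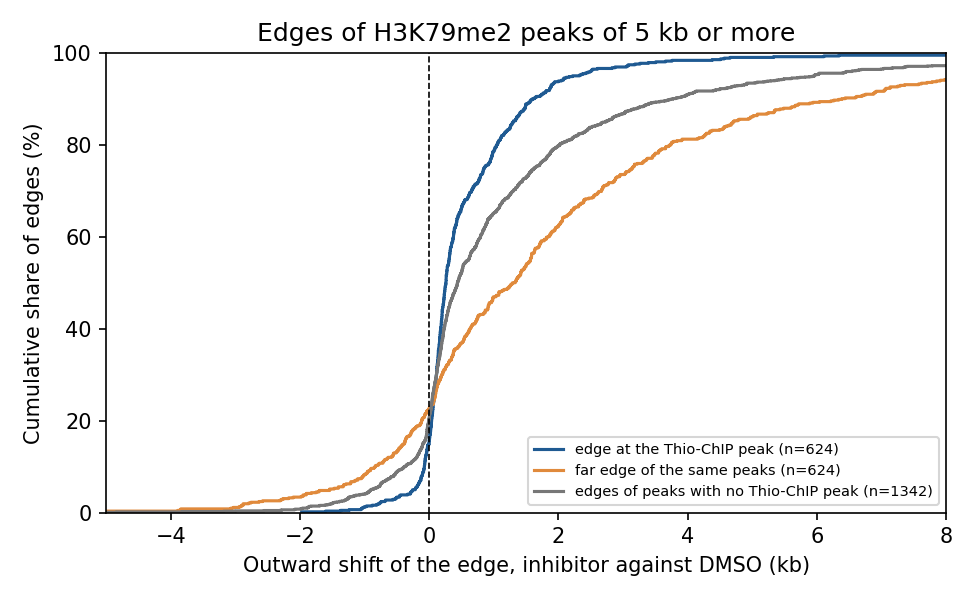
Cumulative share of H3K79me2 peak edges (y axis, %) by how far the edge lay outward in the inhibitor list from its place in the DMSO list (x axis, kb; below 0 inward; the axis is limited to -5 to 8 kb). The edge at a Thio-ChIP peak has a median of 259 bp and the far edge of the same 624 peaks 1308 bp. The 1342 edges of peaks without a Thio-ChIP peak, with both ends pooled, have a median of 437.5 bp.

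At like lengths, the width of the H3K79me2 peaks in the inhibitor list compared with DMSO was similar with and without a Thio-ChIP peak from 5 kb up. Of the peaks matched one to one, 1772 met a Thio-ChIP peak and 4043 did not. The log2 ratio of inhibitor over DMSO width had medians of 0.38 and 0.90 over all lengths, but the peaks without a Thio-ChIP peak were shorter. At 5 to 10 kb the medians were 0.30 in both groups, and at 10 to 20 kb 0.18 and 0.17. Below 1 kb they were 1.79 and 2.19. The shares of peaks that were wider in the inhibitor list were 82.0% and 83.8% at 5 to 10 kb.

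Named regions show these arrangements. The region with the highest Thio-ChIP score, chr17:34254885-34260461 (5577 bp, score 1060), lay wholly inside an H3K79me2 peak of 9468 bp with a score of 153, and the inhibitor list had 2 peaks there that left part of it open, covering 77.6%. It ranked second of all Thio-ChIP peaks. The next region, chr13:55311041-55314362 (score 978), met the end of an H3K79me2 peak of 24720 bp over 484 bp, with its centre outside, and the third, chr10:79610140-79615126 (score 953), shared 2201 of its 4987 bp. These differ in that the first was enclosed and the others lay across an edge. A further region, chr14:22317868-22321266 (score 813), met an H3K79me2 peak of 91528 bp over 603 bp, and the inhibitor peak there was 92748 bp long. At chr15:38228058-38231661 (score 816) the H3K79me2 peak was 3992 bp long in DMSO and 1236 bp with inhibitor, and the covered share was 63.0% and 14.6%. Among the 10 regions with the highest Thio-ChIP scores, the inhibitor peak at the centre of the DMSO peak was narrower than it in 7 and wider in 3. At the first region this was 1 of 2 inhibitor peaks, with 5161 bp against 9468 bp. At the second the widths were close, 24251 bp against 24720 bp. They were also close at chr17:27691578-27695020, 3675 bp against 3753 bp, and, among the wider ones, at chr11:94071598-94073697, 3044 bp against 3002 bp. Of all 1772 H3K79me2 peaks with a Thio-ChIP peak matched one to one, 1467 (82.8%) were wider in the inhibitor list. The 10 regions were not limited to such matches, so the 2 counts are not of like sets. Of the 10 regions with the highest scores (783 to 1060), 8 had their centre outside H3K79me2 and 1 was wholly inside, and 10 of 10 met an inhibitor peak.

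Among H3K79me2 peaks that met a Thio-ChIP peak, the 5 with the highest H3K79me2 scores had Thio-ChIP scores of 134 to 503. H3K79me2 peaks with no Thio-ChIP peak reached a score of 583. The highest of the 5 was 9557 bp long with a score of 482, and it enclosed the region chr17:29168733-29170666, with a Thio-ChIP score of 189. Its neighbour in rank, with an H3K79me2 score of 481, met the region chr17:23939413-23941443, with a Thio-ChIP score of 333. None of the regions at these 5 peaks was among the 10 regions with the highest Thio-ChIP scores.

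At 3 places, 3 Thio-ChIP peaks met the same H3K79me2 peak. At chr11:98821872-98830167 an H3K79me2 peak of 8296 bp had a Thio-ChIP peak across each end (scores 340 and 134) and 1 inside (279), and its score was only 46. At chr8:111229125-111250116 a peak of 20992 bp was arranged similarly, with Thio-ChIP scores of 227 and 190 at the ends and 268 inside. There, the Thio-ChIP peak with a score of 190 also met a neighbouring H3K79me2 peak. The last of the 3, on chromosome 18, was 30140 bp long and enclosed its 3 Thio-ChIP peaks.

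The rule has a sharp limit, and the few peaks named nearest to it had similar scores on both sides. Scores of all peaks near the limit were not summarised. The regions nearest the limit shared a single base with the mark, chr4:4719511-4721246 (score 112) and chr4:98786678-98788251 (score 321). Just outside, chr3:10439222-10440510 (score 117) adjoined an H3K79me2 peak with no shared base, and chr4:150227944-150229919 (score 273) missed one by 1 bp. In all, 191 regions (6.70%) shared 100 bp or fewer, and 140 of the other 5072 Thio-ChIP peaks lay within 0.1 kb of a DMSO peak, 570 within 1 kb and 1212 within 10 kb. Most other Thio-ChIP peaks thus lay more than 10 kb from the mark.

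Regions were spread over all 20 chromosomes. The share of Thio-ChIP peaks that were members lay between 32.8% (chromosome 15) and 40.4% (chromosome 17) on the autosomes, and was 24.0% on X, with 25 of 104. Chromosome X also had the lowest share of H3K79me2 peaks meeting a Thio-ChIP peak, 8.39% against 16.8% to 25.2% on autosomes, and the lowest median score both of members, 139, and of other Thio-ChIP peaks, 128. The nearest other Thio-ChIP centre was 57.0 kb away at the median in the regions and 56.7 kb in peaks on neither H3K79me2 list. Within 10 kb of another lay 290 regions (10.2%), against 82 (10.7%) of the peaks on an inhibitor peak only and 707 (16.4%) of those on neither list.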

How the data were processed

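Thio-ChIP and H3K79me2 peak lists of 1 library each were used, with groups from the sample titles. Each deposited list holds peak positions and a score from the authors, whose meaning no source states. In the H3K79me2 lists every peak is named after the library and its input, per the file contents. The submitters' processing notes name Bowtie, Bowtie2 2.2.9, MACS 1.4.2 and MACS2 2.1.1, and the builds mm9 and GRCm38, without saying which served which file. How the lists were thresholded sets their length and the edges reported. FPKM values of 3 RNA libraries, computed and deposited by the authors, served only for markers. The libraries' depth is unknown.

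Coordinates are 1-based. Overlaps, edge distances and medians were computed in Python 3.11.15 with numpy 2.4.6 and pandas 2.3.3, and the interval code was tested on simulated data. Build offsets were read from counts of gene starts in overlapping 4 kb bins, in windows with at least 20 peaks per list. Members, lists and measures were chosen with earlier results of these data known. Regions were named by a rule: the 10 highest Thio-ChIP scores, the 5 highest H3K79me2 scores, the H3K79me2 peaks with the most members, and those nearest the limit of the rule. From these some are given in full. Expression and knockout tables were not joined to peaks, because the builds differ.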

Additional observations from a re-analysis of the deposited data

How the results depend on the processing

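The number of regions depended on what counts as shared. It was 679 with at least 50% of the Thio-ChIP peak covered and 678 with the centre inside, against 2852 with 1 bp, because most regions cross an edge. It was 1703 of 3980 among Thio-ChIP peaks at or above the median score. It stayed between 2449 and 3522 within 1 kb, on DMSO peaks at or above the median score, and on the inhibitor list. The median Thio-ChIP score of members was 168 with 50% covered (153 in the others) and 168.5 with the centre inside (153), and 127, 142, 182 and 262 in 4 equal bins by width, above the other peaks in each of these settings. The median width of H3K79me2 peaks with a Thio-ChIP peak was 6219 bp, against 3086 bp without, among DMSO peaks at or above the median score. The share of regions on the inhibitor list was 47.1% with 50% covered, 94.7% on inhibitor peaks at or above the median score and 95.3% with as many inhibitor peaks as the DMSO list has. The share of centres outside or close to the edge of H3K79me2 peaks of 5 kb or more was 83.5% within 1 kb, 78.1% within 0.5 kb and 89.7% within 2 kb. Settings on the cut inhibitor list, the distance to the edge, the gaps and the edge shift were chosen after seeing the data. The share of covered gaps was 43.3% in both shorter inhibitor lists, and the edge at a region lay 275.5 bp further out among peaks of 10 kb or more. The shorter lists drop low-scoring peaks but keep the edges of the others, so they cannot show how depth bears on the gaps.

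No paired analysis was possible because the peak lists have 1 library each and no result comes from a test. The planned knockout comparisons over genes at the regions, with their alternatives, were not run, since the lists are not in the build of the expression tables. With 1 library per list, differences between the treatments and the cultures cannot be told apart from those between libraries. The score is the authors' and of unstated meaning, and between the lists only ranks were compared. An edge is where the caller ended a peak, so it can move with depth.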
